A study of Mus musculus with 15 samples.

Results

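The genes described here belong to the transforming growth factor beta (TGF-beta) and bone morphogenetic protein (BMP) pathway. They were taken from a list of 46 symbols, and a gene was kept where a probe set of the array carried its symbol and no other. A gene with several such probe sets, here Smurf2, was represented by the one of highest mean across all 15 arrays. Of the 46, 45 were measured among 19297 genes in all, and Gdf15, a distant TGF-beta relative induced by stress, was dropped by that rule. All values come from Myc-CaP cells, a line grown from a prostate tumour of a mouse with a Myc transgene, measured on single-colour expression arrays.

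The 15 arrays fall into 5 groups of 3. The control cells carry a vector without Twist1 (VEC). The other groups express wild-type Twist1 (WT), the form F191G, which alters the C-terminal Twist box, or the forms labelled AQA and DQD. Every group, VEC included, shares the Myc-CaP background, was selected after transfection and was grown to confluence before harvest. The labels do not say whether replicates A, B and C came from separate cultures or clones. Every p-value thus reflects the spread among arrays alone, and that spread may be technical. The labels also name 2 array batches, A with 8 arrays and B with 7. Batch A holds replicates A and B of VEC, WT and AQA and replicate A of DQD and F191G.

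TGF-beta ligands are secreted in a latent complex with binding proteins, and once freed they join a type II and a type I receptor kinase, which phosphorylates Smad2 and Smad3. BMP ligands act through their own receptors on Smad1, Smad5 and Smad9. Both sets of Smads enter the nucleus with Smad4, and the inhibitory Smads, the Smurf ubiquitin ligases and the corepressors Ski and Skil hold the response in check. In prostate epithelium TGF-beta is known for restraining growth, and in many carcinomas for promoting epithelial-mesenchymal transition, the process for which the transcription factor Twist1 is also known.

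Values are deposited log2 values, and groups are compared within a gene. Levels of different genes are set side by side only for markers and for the ranking of genes by mean level. Array medians ran from 6.31 to 6.42 over the whole table. WT replicate A stood apart: pairwise correlations between arrays over all genes ran from 0.969 to 0.998, and from 0.990 once it was left out. The differences of called members are therefore also given without it, as are many of the other values that it moved by over 1.5 times. The Twist1 probe set read 0.36 higher in WT than in VEC (SE 0.147, limma adjusted p = 0.129) and was called in none of the 4 forms against VEC (2 of the 4 at an unadjusted p under 0.05), so it gave no check of the labels. Of 7 measured luminal markers in VEC, Foxa1 read 11.18 ± 0.091, Krt8 8.20 ± 0.664, Hoxb13 7.20 ± 0.236, Krt18 5.89 ± 0.135, Cdh1 5.66 ± 0.049, Epcam 5.09 ± 0.059 and Pbsn 2.19 ± 0.036 (SD, n = 3). The last 4 lay below the array medians, and without detection calls their absence or presence was not tested.

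A gene was called changed where its Benjamini-Hochberg adjusted p from limma, over all 19297 genes, was under 0.05, in a model of group and batch over all 15 arrays. Differences are on the log2 scale with their standard error (SE). In bulk samples, fewer cells with a transcript and less transcript per cell cannot be told apart.

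Promoter sequence was examined because 5 members rose in WT and 16 differed between DQD and WT. RefSeq windows of 250 bases before to 50 after a start (GRCm38.p6) were at hand for 34 of the 46 listed genes and for 12 of the 18 members called in any comparison, some genes having several windows. They were searched on both strands for CANNTG, the E-box to which basic helix-loop-helix factors such as Twist1 bind, for CAGAC, the core of the Smad element, and for GGCGCC, a GC-rich Smad site. Of the 12, 7 held CANNTG, 8 held CAGAC and 3 held GGCGCC. These counts take a gene as holding a motif where any of its windows does. By the same count the shares of all 27025 genes were 75%, 53.2% and 13.4%, and of all 32851 single windows 72.3%, 49.6% and 11.9%. The promoters of 3 genes are shown, a ligand and a latent binding protein that read highest in WT and an activin subunit that read lowest there, each as the 250 bases before the start, 5′ to 3′ on the gene's strand, with CANNTG in capitals.
Tgfb2: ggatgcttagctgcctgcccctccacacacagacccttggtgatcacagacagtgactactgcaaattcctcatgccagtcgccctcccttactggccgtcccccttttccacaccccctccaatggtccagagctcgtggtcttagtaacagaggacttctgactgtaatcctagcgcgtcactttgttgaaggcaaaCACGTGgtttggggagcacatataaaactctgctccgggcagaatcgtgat
Ltbp3: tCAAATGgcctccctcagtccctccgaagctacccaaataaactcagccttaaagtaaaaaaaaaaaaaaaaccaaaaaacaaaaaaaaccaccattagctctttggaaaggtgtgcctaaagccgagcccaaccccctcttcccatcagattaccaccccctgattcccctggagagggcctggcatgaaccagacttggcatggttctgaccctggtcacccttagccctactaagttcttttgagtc
Inhba: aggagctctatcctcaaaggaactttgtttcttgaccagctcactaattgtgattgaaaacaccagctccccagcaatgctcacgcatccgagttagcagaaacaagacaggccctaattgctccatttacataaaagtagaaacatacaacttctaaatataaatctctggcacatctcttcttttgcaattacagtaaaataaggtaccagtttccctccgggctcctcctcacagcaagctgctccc
The Tgfb2 stretch (chr1:186705990-186706239, minus strand) holds 1 CANNTG, which reads CACGTG and stands shortly before the start, and 2 CAGAC. The Ltbp3 stretch (chr19:5740650-5740899, plus strand) holds 1 CANNTG and 1 CAGAC, and the Inhba stretch (chr13:16011601-16011850, plus strand) holds 0 of either, which says only that these letters are not in this window. Whether Twist1 or another basic helix-loop-helix factor binds any CANNTG shown here was not tested. No searched motifs overlapped within the shown stretches. In the whole windows 1 pair overlapped in Chrd and 1 in Fstl3.

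The comparison of WT with VEC asks which members wild-type Twist1 changes. The data show that 5 rose and 0 fell: the ligand genes Tgfb2 and Tgfb3, the co-receptor gene Tgfbr3, the activin receptor gene Acvr2a and the corepressor gene Skil. That is 11.1% of the 45 members, against a background of 12.8% of all genes called (7.06% higher and 5.72% lower in WT), so the share of members called is near that of the array as a whole. The median difference was 0.03 over the members and -0.009 over all genes, and 13 members had an unadjusted p under 0.05, 11 of them higher in WT, which is 28.9% of the members against 27.6% of all genes.

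Tgfb2 encodes a TGF-beta ligand that depends on the co-receptor betaglycan to reach its receptors. On replicates A, B and C in turn it read 8.08, 8.39 and 7.97 in VEC, 10.53, 8.65 and 9.38 in WT, 7.76, 8.70 and 7.84 in AQA, 7.59, 8.28 and 7.96 in DQD and 7.99, 8.46 and 8.19 in F191G. All WT arrays lay above all VEC arrays, and WT replicate A far above the rest. The rise was 1.37 (SE 0.382, adjusted p = 0.0350), or 2.59-fold, and 1.36 within batch A and 1.41 within batch B. Without WT replicate A it was 0.84 (adjusted p = 0.108). The call was also lost without VEC replicate A, B or C, or without replicate C of WT, DQD or F191G, at adjusted p from 0.0506 to 0.149, and was kept in 8 of the 15 fits that left out 1 array.

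Tgfbr3 encodes betaglycan, which presents TGF-beta, TGF-beta2 above all, to the type II receptor. It read 9.05, 8.85 and 8.69 in VEC, 9.82, 9.37 and 9.52 in WT, 9.05, 9.15 and 9.01 in AQA, 8.80, 9.06 and 8.96 in DQD and 8.92, 9.17 and 9.11 in F191G. The WT arrays formed a separate upper group, above every array of the other 4 groups. Tgfbr3 had the smallest p of the members, with a rise of 0.71 (SE 0.121, adjusted p = 0.00701), 1.63-fold, and 0.64 and 0.83 within batches A and B. It stayed called without WT replicate A at 0.58 (adjusted p = 0.0176) and in 14 of the 15 fits that left out 1 array, and was lost without VEC replicate C (0.60, adjusted p = 0.0567). It was 1 of the 2 members with a called difference among the 5 groups (F test, adjusted p = 0.0278).

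Tgfb3, another TGF-beta ligand gene, read 9.19, 8.78 and 8.53 in VEC, 9.97, 9.37 and 9.38 in WT, 9.30, 9.19 and 9.19 in AQA, 8.78, 9.14 and 8.86 in DQD and 8.56, 9.26 and 9.04 in F191G. The WT arrays lay above the other 12, WT replicates B and C by a small margin. The rise was 0.74 (SE 0.208, adjusted p = 0.0366), with 0.68 and 0.85 within the batches. It was not called without WT replicate A (0.53, adjusted p = 0.147), VEC replicate B (0.0869) or VEC replicate C (0.193), and just missed the threshold without replicate C of AQA, DQD or F191G (0.0513 to 0.0532). Tgfb1, the founding ligand gene of the family, had group means from 9.16 to 9.38 and differed by 0.15 (SE 0.0991, adjusted p = 0.378), and by 0.04 without WT replicate A.

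Skil encodes SnoN, a corepressor that binds Smads and is itself a TGF-beta target. It read 8.11, 7.98 and 7.97 in VEC, 8.69, 8.32 and 8.40 in WT, 7.97, 8.18 and 8.06 in AQA, 8.28, 8.46 and 8.40 in DQD and 8.25, 8.39 and 8.22 in F191G. WT, DQD and F191G arrays all lay above the VEC arrays, while AQA overlapped with VEC. The WT rise was 0.45 (SE 0.0978, adjusted p = 0.0145), 0.46 and 0.43 within the batches. It was kept without WT replicate A (0.33, adjusted p = 0.0476) and lost without VEC replicate C (adjusted p = 0.0867). Skil was the other member with a called difference among the 5 groups (F test, adjusted p = 0.0378), 2 of 45 members or 4.44% against 10.1% of all genes.

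Acvr2a encodes a type II receptor for activins and some BMPs. It read 7.60, 7.78 and 7.78 in VEC, 8.05, 7.996 and 7.94 in WT, 7.86, 7.94 and 7.997 in AQA, 7.90, 8.11 and 7.89 in DQD and 8.17, 7.95 and 7.96 in F191G. All 12 arrays with a Twist1 form lay above the 3 VEC arrays. The WT rise of 0.28 (SE 0.0846, adjusted p = 0.0477) was small, 0.34 within batch A and 0.16 within batch B, and was lost in 13 of the 15 fits that left out 1 array, at adjusted p from 0.0553 to 0.157, each of the 6 arrays compared among them, with a value of 0.25 without WT replicate A. The other forms differed from VEC by 0.22 (AQA, adjusted p = 0.236), 0.25 (DQD, 0.116) and 0.31 (F191G, 0.212).

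The count of 5 depended on individual arrays. The share of all genes called in each of the fits that follow is not given here. Their counts thus do not tell a change in the members from one over all genes. Leaving out WT replicate A or VEC replicate B gave 2, leaving out VEC replicate A gave 3 and leaving out WT replicate B gave 9. Leaving out VEC replicate C gave 0 by limma (9 members at an unadjusted p under 0.05). Arrays of other groups also moved it, since all groups share 1 estimate of the spread: it was 3 without AQA replicate C and 2 without DQD replicate C or F191G replicate C. In these fits with 2 calls the members were Tgfbr3 and Skil. With only the 6 arrays compared it was 0 by limma, with 8 members at an unadjusted p under 0.05. Within batch A it was 0 by limma (6) and within batch B 2 (11), Tgfb2 and Tgfbr3, where the lone WT and VEC arrays are assumed to vary like the others.

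**Figure D1:**
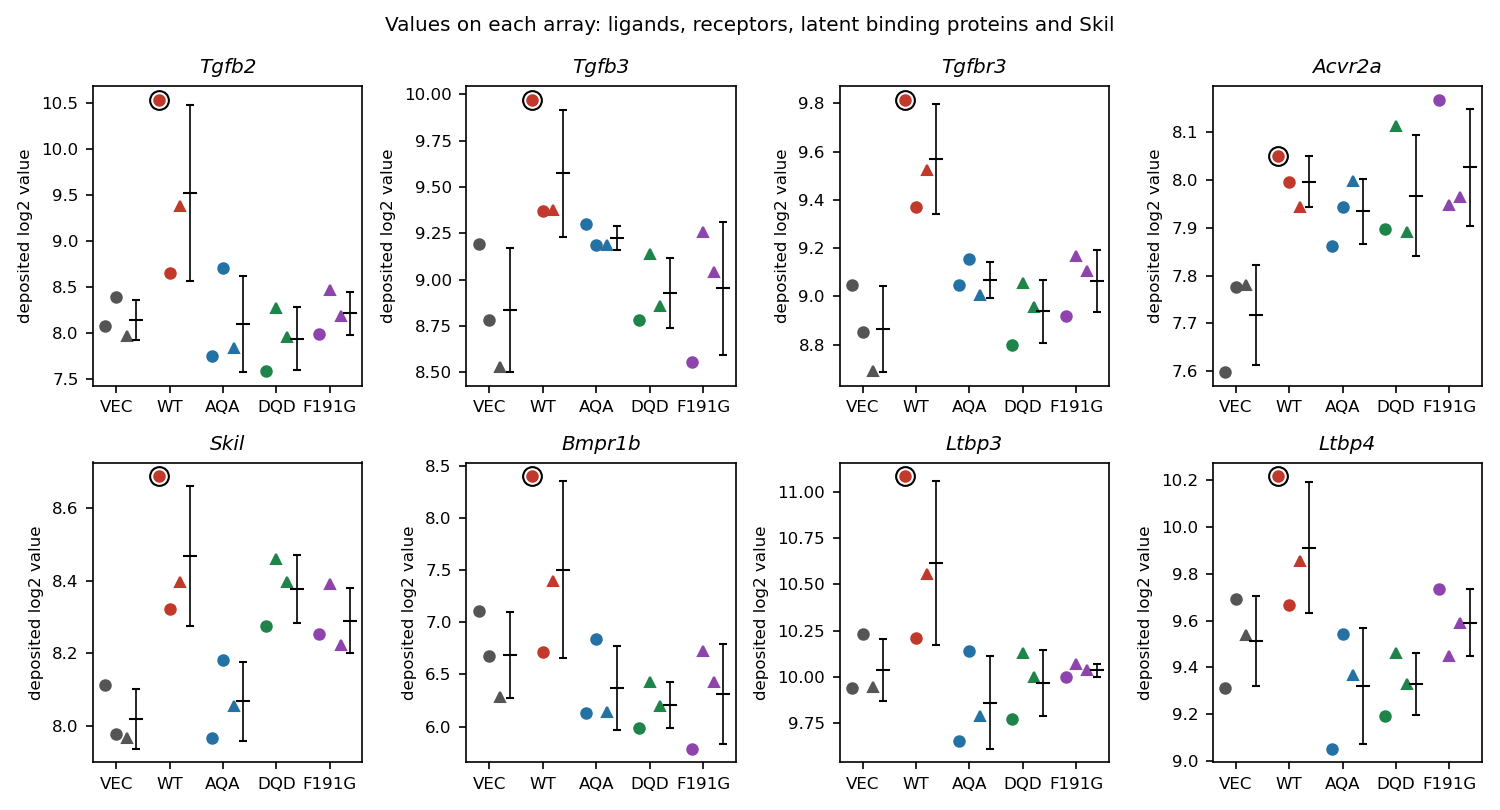
Deposited log2 value (vertical axis) of 8 members on each array, by group (horizontal axis). Circles are batch A, triangles batch B, the ringed point is WT replicate A, and the bar at the right of each group is the mean ± SD of 3 arrays. WT replicate A is the highest array for 7 of the 8 genes, the exception being Acvr2a, and for Tgfbr3 all 3 WT arrays lie above the other 12.

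Several further members read apart in WT without passing the test. The latent binding protein genes Ltbp3 and Ltbp4, whose products hold latent TGF-beta in the matrix, differed from VEC by 0.58 (SE 0.187, adjusted p = 0.0595) and 0.40 (SE 0.156, adjusted p = 0.112). Ltbp1, another of that family, differed the other way, by -0.35 (SE 0.140, adjusted p = 0.118), and Ltbp2 by -0.12 (SE 0.0821, adjusted p = 0.404). Tgif1, a homeodomain corepressor gene, differed by 0.21 (SE 0.0691, adjusted p = 0.0605) and the common Smad gene Smad4 by 0.18 (SE 0.0636, adjusted p = 0.0787). The type I BMP receptor gene Bmpr1b differed by 0.81, the activin A subunit gene Inhba by -0.60 and the inhibitory Smad gene Smad7 by -0.59 (adjusted p = 0.177, 0.105 and 0.193). Without WT replicate A the last 3 values were 0.34, -0.26 and -0.20, and those of Ltbp1, Ltbp2, Ltbp3 and Ltbp4 were -0.14, -0.20, 0.33 and 0.24. Of all genes, 12.8% were called in WT against VEC and 27.6% had an unadjusted p under 0.05. By role, 2 of 3 TGF-beta ligands, 2 of 8 TGF-beta and activin receptors and 1 of 4 corepressors were called. Whether any role was called more often than other genes was not tested. Neither ligand call, Tgfb2 or Tgfb3, held without WT replicate A (limma adjusted p = 0.108 and 0.147). None of the 5 BMP ligands, 2 activin subunits, 4 BMP receptors, 5 signalling Smads, 3 inhibitory members (Smad6, Smad7, Bambi), 5 extracellular antagonists, 4 latent binding proteins or 2 ubiquitin ligases was called by limma, with 0, 1, 1, 1, 0, 0, 3 and 0 of them at an unadjusted p under 0.05.

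**Figure D2:**
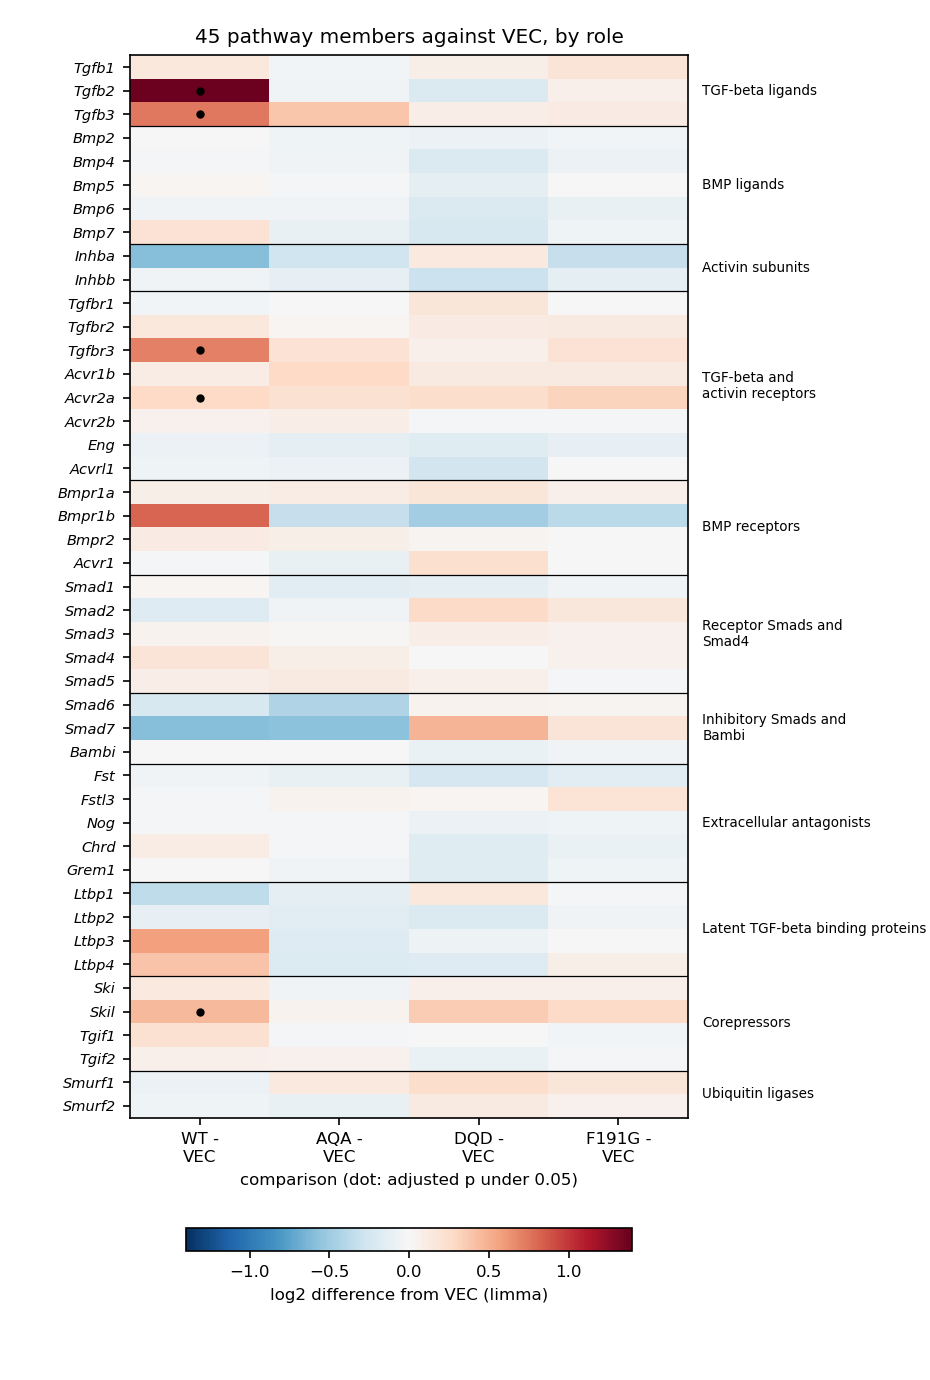
limma's log2 difference from VEC (colour) of the 45 members (vertical axis, grouped by role) for WT, AQA, DQD and F191G (horizontal axis). A dot marks an adjusted p under 0.05: the 5 dots all stand in the WT column, at Tgfb2, Tgfb3, Tgfbr3, Acvr2a and Skil. The 4 columns share the same VEC arrays.

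None of the members was called in the other forms against VEC. In F191G, the Twist box mutant, 0 of 45 were called by limma (2 at an unadjusted p under 0.05), against 0.0985% of all genes (0.0466% higher and 0.0518% lower in F191G) and 11.7% at an unadjusted p. The members with the smallest p were Acvr2a, 0.31 (SE 0.0866, adjusted p = 0.212), and Skil, 0.27 (SE 0.10, adjusted p = 0.328), followed by Fst, the gene of the activin-binding protein follistatin, -0.15 (SE 0.0730, adjusted p = 0.445), and the type II TGF-beta receptor gene Tgfbr2, 0.13 (SE 0.0663, adjusted p = 0.482). Fst read 6.49, 6.62 and 6.58 in VEC, 6.498, 6.43 and 6.63 in WT, 6.42, 6.55 and 6.42 in AQA, 6.40, 6.30 and 6.27 in DQD and 6.43, 6.34 and 6.47 in F191G. Tgfbr2 read 7.75, 7.84 and 7.62 in VEC, 7.88, 7.86 and 7.90 in WT, 7.77, 7.69 and 7.82 in AQA, 7.82, 7.90 and 7.83 in DQD and 7.85, 7.91 and 7.83 in F191G. The F191G arrays of Fst lay just below the VEC arrays and those of Tgfbr2 overlapped with them. The Tgfbr2 difference was 0.040 without VEC replicate C, and that of Acvr2a 0.20 without F191G replicate A.

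In AQA, 0 of 45 were called by limma (3 at an unadjusted p under 0.05), against 0.881% of all genes (0.513% higher and 0.368% lower in AQA) and 15.7% at an unadjusted p. The type I activin receptor gene Acvr1b differed by 0.28 (SE 0.0966, adjusted p = 0.183), the inhibitory Smad gene Smad6 by -0.42 (SE 0.161, adjusted p = 0.221), Acvr2a by 0.22 and the type I BMP receptor gene Bmpr1a by 0.11 (SE 0.0527, adjusted p = 0.343). Acvr1b read 6.64, 6.80 and 6.83 in VEC, 6.91, 6.94 and 6.72 in WT, 7.15, 6.91 and 7.05 in AQA, 6.87, 7.0003 and 6.76 in DQD and 6.83, 7.02 and 6.79 in F191G. Smad6 read 8.43, 7.71 and 8.08 in VEC, 7.72, 7.83 and 8.001 in WT, 7.41, 7.81 and 7.74 in AQA, 8.20, 8.17 and 7.998 in DQD and 8.27, 8.06 and 8.001 in F191G. AQA replicates A, B and C of Acvr1b lay above all VEC arrays, whereas Smad6 was spread widely in VEC and the groups overlapped. Without VEC replicate A the Smad6 difference was -0.24. With only the 6 AQA and VEC arrays in the fit, Smad7 was called lower (a difference of -0.57 and adjusted p = 0.348 with all arrays).

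In DQD, 0 of 45 were called by limma (12 at an unadjusted p under 0.05, 6 in each direction), against 0.814% of all genes (0.415% higher and 0.399% lower in DQD). The 12 are 26.7% of the members, against 24% of all genes at an unadjusted p. The BMP ligand gene Bmp4 differed by -0.20 (SE 0.0552, adjusted p = 0.0724), Skil by 0.36 (SE 0.10, adjusted p = 0.0730), Fst by -0.24 (SE 0.0730, adjusted p = 0.0876) and Bmpr1a by 0.17 (SE 0.0540, adjusted p = 0.101). Bmpr1a read 9.77, 9.85 and 9.78 in VEC, 9.94, 9.86 and 9.86 in WT, 9.92, 9.90 and 9.91 in AQA, 9.95, 9.99 and 9.96 in DQD and 9.84, 9.92 and 9.85 in F191G. The DQD arrays of Bmpr1a were the highest of the 15, by a small margin. Skil passed the threshold without a batch term, with Bmp4 and Fst, with median centring, with Bmpr1a, and by itself without WT replicate A.

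The comparison of F191G with WT tests the difference between the Twist box mutant and the wild type directly. Of the members 1 was called, Tgfbr3, which was lower in F191G by 0.51 (SE 0.124, adjusted p = 0.0376), 2.22% of the members against 7.13% of all genes (3.18% higher and 3.95% lower in F191G). At an unadjusted p under 0.05 it held 12 members, or 26.7%, against 27.7% of all genes. The F191G arrays of Tgfbr3 lay below all WT arrays, with differences of -0.67 and -0.39 within batches A and B. The call was lost without WT replicate A (-0.39, adjusted p = 0.0902), F191G replicate A (adjusted p = 0.264), B (0.0574) or C (0.0686), and the count became 7 without WT replicate B and 3 with replicate C of WT left out. It was 0 by limma without AQA replicate A or C or DQD replicate A or C (11 or 12 members at an unadjusted p under 0.05). Shares of all genes called with an array left out are not given here for comparison.

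The next members in that comparison were Tgif1, -0.25 (SE 0.0708, adjusted p = 0.05004), Tgfb2, -1.30 (SE 0.392, adjusted p = 0.0577), and Smad2, a signal-carrying Smad gene, 0.35 (SE 0.111, adjusted p = 0.0679). Tgif1 read 10.55, 10.60 and 10.52 in VEC, 10.89, 10.66 and 10.75 in WT, 10.52, 10.60 and 10.49 in AQA, 10.47, 10.64 and 10.59 in DQD and 10.51, 10.56 and 10.48 in F191G. Tgif1 was higher on WT replicate A than on any other array, and the F191G and WT arrays did not overlap. Bmpr1b, Ltbp3 and Tgfb3 differed by -1.19, -0.58 and -0.62 (adjusted p = 0.0684, 0.0736 and 0.0816). When WT replicate A was left out, the differences of Tgfb2, Bmpr1b, Ltbp3 and Tgfb3 were -0.83, -0.77, -0.36 and -0.43, and without F191G replicate A that of Smad2 was 0.18. Acvr2a and Skil, which rose in WT against VEC, differed between F191G and WT by 0.030 (SE 0.0866, adjusted p = 0.869) and -0.18 (SE 0.10, adjusted p = 0.269).

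The comparison of AQA with WT called 0 of 45 members by limma (9 at an unadjusted p under 0.05, all lower in AQA), against 0.726% of all genes (0.306% higher and 0.42% lower in AQA). The 9 are 20% of the members, against 25% of all genes at an unadjusted p. The smallest p-values were those of Tgfbr3 -0.50 (SE 0.121, adjusted p = 0.0548), Skil -0.40 (SE 0.0978, adjusted p = 0.0548), Ltbp3 -0.75 (SE 0.187, adjusted p = 0.0557) and Ltbp4 -0.59 (SE 0.156, adjusted p = 0.0603). For all of these the AQA arrays lay below the WT arrays, and both batches gave the same sign. For Ltbp3 the values were -0.75 and -0.77 within batches A and B. The count was 8 without WT replicate B and 5 without AQA replicate B, and 0 by limma without WT replicate A (8 members at an unadjusted p under 0.05). Shares of all genes called in these fits are not given here.

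The comparison of DQD with WT held the most called members of the 8 comparisons. In DQD 9 were lower: Tgfb2, Tgfb3, Bmp4, Bmp7, Tgfbr3, Bmpr1b, Chrd, Ltbp3 and Ltbp4. The other 7 were higher: Smad7, Smad2, Inhba, Ltbp1, Acvr1, Smurf1 and Smurf2. The 16 are 35.6% of the members, against 24.5% of all genes (12.8% lower and 11.8% higher in DQD), and whether members were called more often than other genes was not tested. At an unadjusted p under 0.05 there were 22 members, or 48.9%, against 40.8% of all genes. The median difference was -0.09 over the members and -0.07 over all genes. DQD and WT are also the groups furthest apart in array medians, 6.31 to 6.33 in DQD and 6.40 to 6.42 in WT. Genes in the dimmest, middle and brightest 33.3% by mean level differed by medians of -0.09, -0.11 and 0.09. The 3, 18 and 24 members in these parts differed by medians of -0.15, -0.15 and -0.03.

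**Figure D3:**
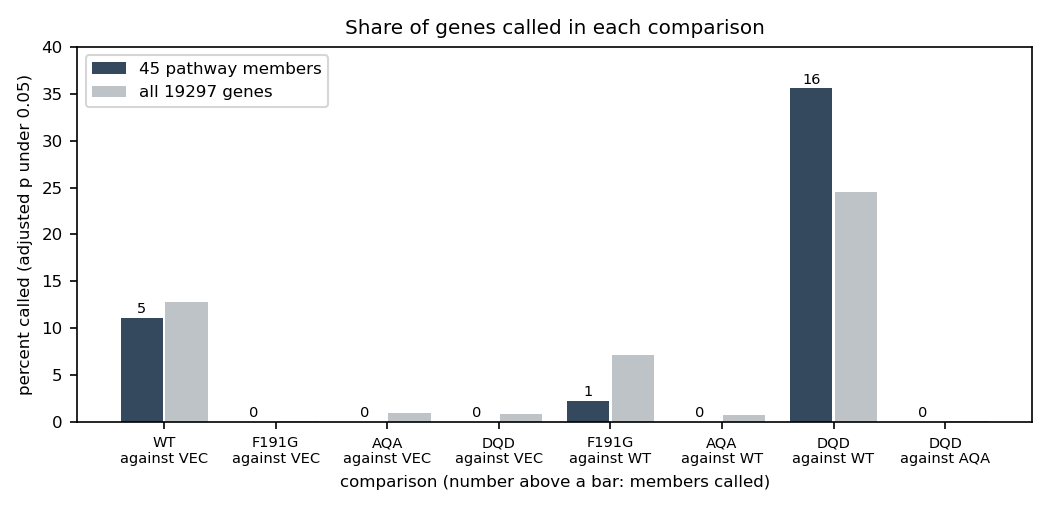
Percent of the 45 members (dark bars, with the number called above) and of all 19297 genes (pale bars) with an adjusted p under 0.05, by comparison (horizontal axis). Members were called in WT against VEC (5), F191G against WT (1) and DQD against WT (16), with backgrounds of 12.8%, 7.13% and 24.5%.

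Among the ligand and receptor genes lower in DQD, Tgfb2 fell by 1.58 (SE 0.392, adjusted p = 0.0186), to 0.335 of the WT value, and Tgfb3 by 0.65 (SE 0.213, adjusted p = 0.0434). Tgfbr3 fell by 0.63 (SE 0.124, adjusted p = 0.0111). Their DQD arrays lie below their WT arrays without overlap, and Tgfb2 and Tgfbr3 remained called without WT replicate A at -1.10 and -0.51. Bmpr1b, whose product is a type I receptor for BMPs, read 7.11, 6.67 and 6.28 in VEC, 8.40, 6.72 and 7.39 in WT, 6.13, 6.84 and 6.14 in AQA, 5.99, 6.43 and 6.195 in DQD and 5.79, 6.73 and 6.43 in F191G. WT replicate A was again the highest array, and WT replicate B lay within the VEC range. Bmpr1b fell by 1.30 (SE 0.383, adjusted p = 0.0299), and the difference was -0.87 (adjusted p = 0.0763) without WT replicate A.

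Of the BMP ligand genes 2 fell by small amounts. Bmp7 read 5.74, 5.90 and 5.80 in VEC, 6.16, 5.80 and 6.09 in WT, 5.69, 5.84 and 5.60 in AQA, 5.66, 5.62 and 5.49 in DQD and 5.63, 5.87 and 5.75 in F191G. It fell by 0.43 (SE 0.104, adjusted p = 0.0177), and the difference without WT replicate A was -0.36 (adjusted p = 0.0473). Bmp4 read 5.18, 5.19 and 5.23 in VEC, 5.17, 5.19 and 5.19 in WT, 5.16, 5.19 and 5.12 in AQA, 4.97, 4.96 and 5.08 in DQD and 5.16, 5.08 and 5.12 in F191G, and fell by 0.18 (SE 0.0552, adjusted p = 0.0337). Bmp4 is 1 of 3 members, with Bmp2 and Bmp5, in the dimmest 33.3% of genes, and its difference was -0.07 with median centring and -0.06 with repeated quantile normalization, neither called. Chrd, the gene of the BMP antagonist chordin, read 5.87, 5.91 and 5.87 in VEC, 6.16, 5.91 and 5.90 in WT, 5.74, 5.92 and 5.91 in AQA, 5.74, 5.66 and 5.73 in DQD and 5.70, 5.80 and 5.86 in F191G, and fell by 0.28 (SE 0.0808, adjusted p = 0.0280). Its call was lost with both of these scalings (adjusted p = 0.124 and 0.177).

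The latent binding proteins divided. Ltbp3 read 9.94, 10.23 and 9.95 in VEC, 11.08, 10.21 and 10.56 in WT, 9.66, 10.14 and 9.79 in AQA, 9.78, 10.13 and 9.999 in DQD and 10.0003, 10.07 and 10.04 in F191G. Ltbp4 read 9.31, 9.69 and 9.54 in VEC, 10.22, 9.67 and 9.85 in WT, 9.05, 9.54 and 9.37 in AQA, 9.19, 9.46 and 9.33 in DQD and 9.74, 9.45 and 9.59 in F191G. Both were highest on WT replicate A, and fell in DQD by 0.65 (SE 0.191, adjusted p = 0.0299) and 0.58 (SE 0.160, adjusted p = 0.0240). Ltbp1, which anchors latent TGF-beta to fibrillin-rich matrix, read 10.85, 10.88 and 10.85 in VEC, 10.11, 10.63 and 10.79 in WT, 10.78, 10.66 and 10.76 in AQA, 11.14, 10.88 and 11.00 in DQD and 11.01, 10.77 and 10.77 in F191G. It was lowest on WT replicate A and higher in DQD by 0.50 (SE 0.143, adjusted p = 0.0277), 0.77 within batch A and 0.15 within batch B. Without WT replicate A the 3 differences were -0.43, -0.44 and 0.31, the last still called (adjusted p = 0.0499).

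Smad7 encodes the inhibitory Smad that brings Smurf ligases to the TGF-beta receptor, and is itself induced by TGF-beta. It read 8.53, 8.50 and 8.70 in VEC, 7.23, 8.18 and 8.55 in WT, 7.88, 8.03 and 8.12 in AQA, 9.37, 8.83 and 8.96 in DQD and 9.24, 8.46 and 8.57 in F191G. The 3 DQD arrays were above all WT, AQA and VEC arrays, and WT replicate A was the lowest of the 15. The difference from WT was 1.07 (SE 0.288, adjusted p = 0.0233), 2.09-fold, and 0.71 (adjusted p = 0.0428) without WT replicate A. It was 1.67 within batch A and 0.34 within batch B. Against VEC the DQD difference was 0.47 (SE 0.288, adjusted p = 0.335), and against AQA 1.04 (SE 0.288, adjusted p = 0.151).

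Smad2 read 8.57, 8.51 and 8.58 in VEC, 8.15, 8.47 and 8.48 in WT, 8.39, 8.49 and 8.64 in AQA, 8.88, 8.81 and 8.79 in DQD and 8.94, 8.58 and 8.63 in F191G. It was higher in DQD than in WT by 0.46 (SE 0.111, adjusted p = 0.0175), and by 0.35 (adjusted p = 0.0431) without WT replicate A. The DQD arrays also lay above those of VEC and AQA. Smurf1 and Smurf2, which encode ubiquitin ligases that mark Smads and receptors for degradation, were higher in DQD by 0.33 (SE 0.114, adjusted p = 0.0487) and 0.19 (SE 0.0650, adjusted p = 0.0469). Smurf1 read 8.26, 7.92 and 8.05 in VEC, 7.74, 8.12 and 8.12 in WT, 8.23, 8.15 and 8.28 in AQA, 8.34, 8.36 and 8.28 in DQD and 8.40, 8.21 and 8.14 in F191G. Smurf2 read 9.77, 9.85 and 9.94 in VEC, 9.72, 9.85 and 9.81 in WT, 9.74, 9.75 and 9.77 in AQA, 10.02, 9.94 and 9.995 in DQD and 9.996, 9.90 and 9.85 in F191G. Neither call held without WT replicate A (0.21 and 0.16, adjusted p = 0.154 and 0.151). A second, dimmer Smurf2 probe set had group means of 6.41 in WT and 7.0 in DQD, the same direction.

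Inhba read 7.24, 7.55 and 7.49 in VEC, 6.197, 7.10 and 7.19 in WT, 7.20, 6.97 and 7.28 in AQA, 7.77, 7.40 and 7.51 in DQD and 7.45, 6.84 and 7.03 in F191G. It was higher in DQD than in WT by 0.73 (SE 0.235, adjusted p = 0.0396), and by 0.43 (adjusted p = 0.0897) without WT replicate A. Acvr1, the gene of a type I receptor for BMPs and activins, read 7.68, 7.64 and 7.78 in VEC, 7.60, 7.71 and 7.73 in WT, 7.52, 7.66 and 7.61 in AQA, 7.93, 7.87 and 7.97 in DQD and 7.84, 7.63 and 7.65 in F191G. The DQD arrays were the 3 highest of the 15. Acvr1 was higher than in WT by 0.24 (SE 0.0741, adjusted p = 0.0335), and not called without WT replicate A (0.20, adjusted p = 0.106).

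**Figure D4:**
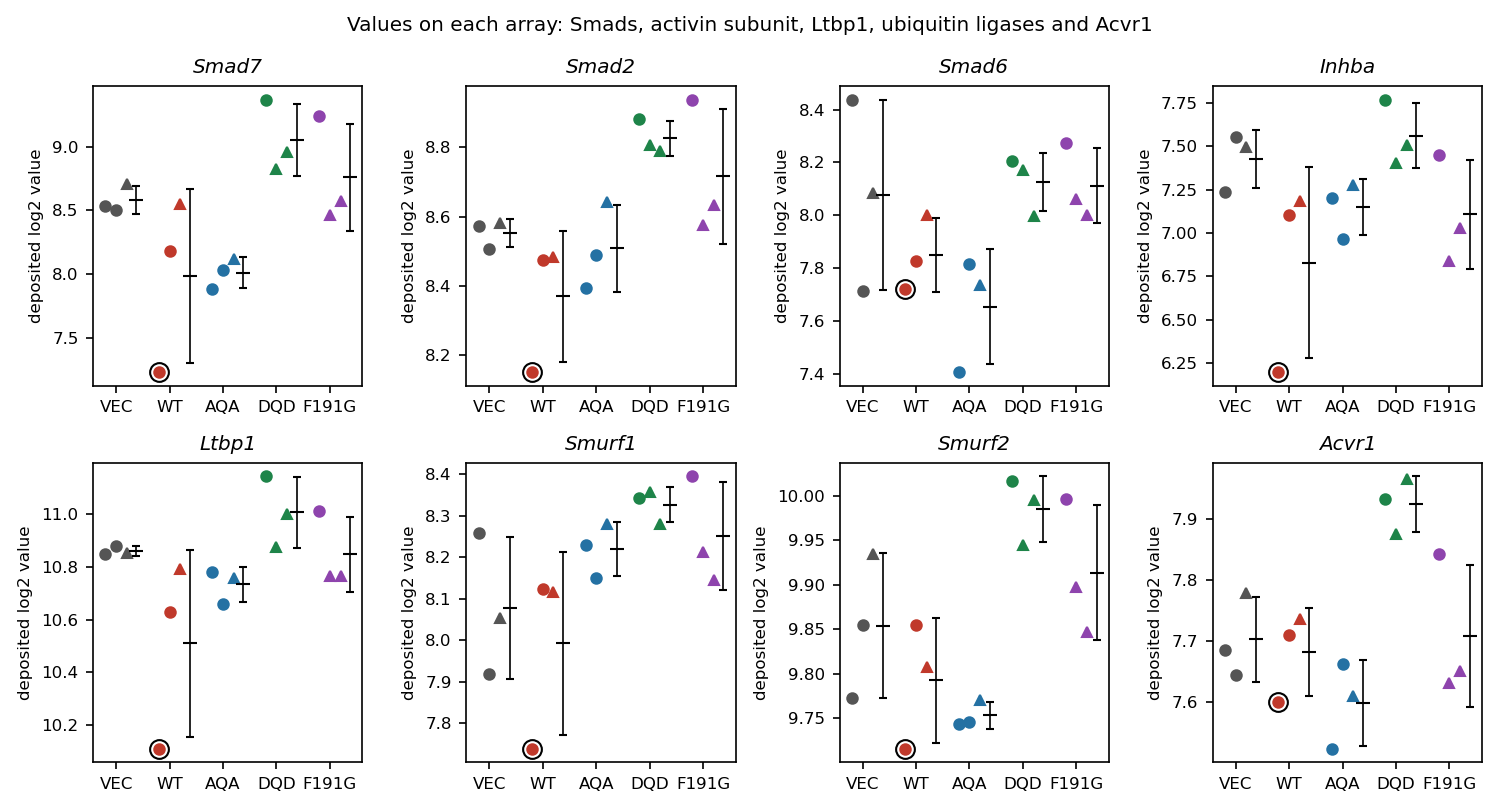
Deposited log2 value (vertical axis) of 8 members on each array, by group (horizontal axis), drawn as in the plot of genes high in WT: circles batch A, triangles batch B, ring WT replicate A, bar mean ± SD of 3 arrays. WT replicate A is the lowest of the 15 arrays for Smad7, Smad2, Inhba, Ltbp1, Smurf1 and Smurf2.

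All 16 differences had the same sign within both batches, and 15 were larger in batch A, which holds WT replicates A and B and DQD replicate A. Without WT replicate A all 16 kept their sign, 15 were smaller, and 6 stayed called: Tgfb2, Tgfbr3, Bmp7, Smad7, Smad2 and Ltbp1. Those of Tgfb3, Bmp4 and Chrd were then -0.46, -0.19 and -0.20 (adjusted p = 0.134, 0.0730 and 0.0888). For the counts that follow, the share of all genes called in the same fit is not given here. The count was 8 without DQD replicate C and 0 by limma without DQD replicate A (15 members at an unadjusted p under 0.05). With only the 6 arrays compared it was 0 by limma as well (15). Within batch A it was 0 by limma (13) and within batch B 2 (11), Tgfb2 and Bmpr1b. Median centring moved all genes by 0.11 and turned the 7 higher and 9 lower into 9 and 6, and repeated quantile normalization turned them into 3 and 8. All 16 kept their sign under both. Tgfb3, Bmp4 and Chrd lost their call with the first, and Bmp4, Bmp7, Inhba, Acvr1, Chrd, Smurf1 and Smurf2 with the second. Tgfbr1 and Bmpr1a were called higher with the first alone (0.32 and 0.19), and Smad4 and Tgif1 lower with the second alone (-0.20 and -0.24).

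**Figure D5:**
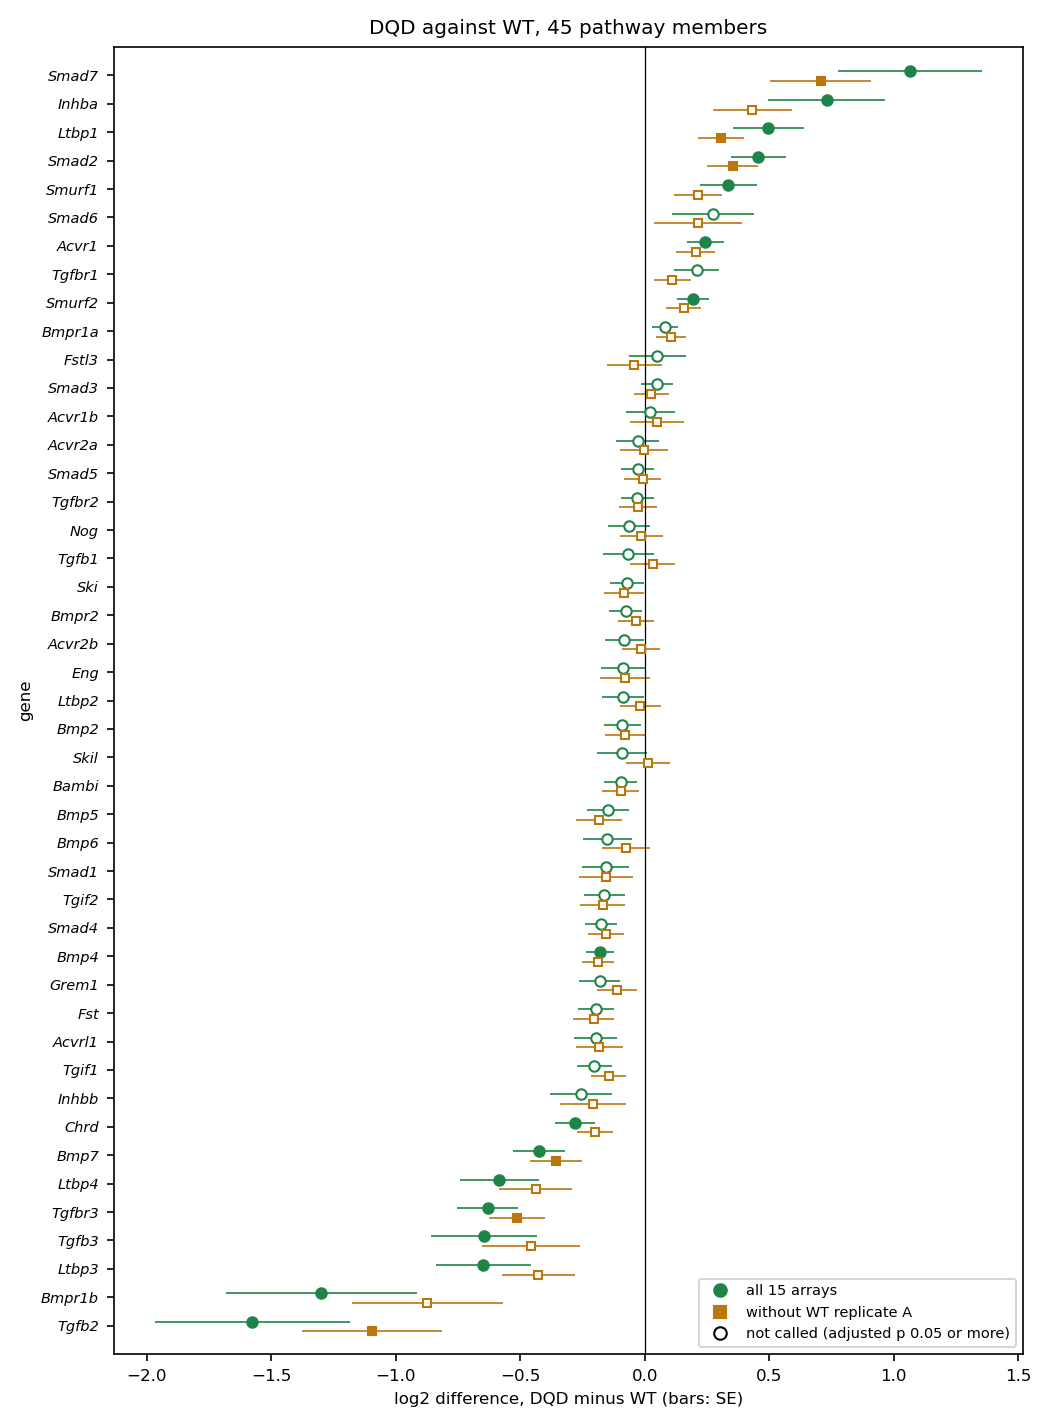
Log2 difference of DQD minus WT (horizontal axis, bars SE) for the 45 members (vertical axis, ordered by size), from all 15 arrays (green circles) and without WT replicate A (orange squares); filled points have an adjusted p under 0.05. Tgfb2 at -1.58 and Smad7 at 1.07 stand at the ends, and 15 of the 16 called differences are nearer 0 without that array.

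The comparison of DQD with AQA called 0 of 45 members by limma (7 at an unadjusted p under 0.05, 6 of them higher in DQD), against 0.0259% of all genes (0.0207% higher and 0.00518% lower in DQD). The 7 are 15.6% of the members, against 14.6% of all genes at an unadjusted p. The smallest p was that of Acvr1, 0.33 (SE 0.0741, adjusted p = 0.108), followed by Smad7, Smurf2, 0.23 (SE 0.0650, adjusted p = 0.155), and Skil, 0.31 (SE 0.10, adjusted p = 0.200). For these 4 genes the DQD arrays all lay above the AQA arrays. Acvr1 differed by 0.34 within batch A and 0.31 within batch B, and Smad7 by 1.42 and 0.77. Without WT replicate A Smad7 was called higher (adjusted p = 0.0304).

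The other 21 measured members were called in none of the 8 comparisons with all 15 arrays, where 0 to 4 of them a comparison passed an unadjusted p under 0.05. Their span from the lowest to the highest of the 5 group means ran from 0.083 for Nog, the gene of the BMP antagonist noggin, to 0.30 for the activin B subunit gene Inhbb. The F test over the 5 groups gave adjusted p from 0.145 for Acvrl1, an endothelial type I receptor gene, to 0.900 for Nog. Among them are the central signalling genes Tgfbr1 (7.96 to 8.17), Smad3 (9.52 to 9.61), Smad1 (5.67 to 5.84), Smad5 (8.58 to 8.73), Smad4 (10.89 to 11.07) and Bmpr2 (10.51 to 10.63), given as the lowest and highest group mean. The same holds for Tgfb1, Bmp2, Bmp5, Bmp6, Acvr2b, Eng, Bambi, Fstl3, Grem1, Ltbp2, Ski and Tgif2, whose spans lay between 0.090 and 0.22. A p that misses the threshold does not show that these transcripts were equal in the groups.

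A total of 91 further genes of the pathway and its known targets was set beside the members, of which 84 were measured. In WT against VEC 7 rose and 4 fell, in DQD against WT 3 were higher and 14 lower, in F191G against WT 3 were higher and 3 lower, and in AQA against VEC 1 rose. The shares of all genes called in these comparisons were 12.8%, 24.5%, 7.13% and 0.881%, so counts of 11, 17 and 6 of 84 are near the background in WT against VEC and F191G against WT and below it in DQD against WT. By limma 0 were called for F191G and DQD against VEC, AQA against WT and DQD against AQA, with 16, 27, 22 and 7 of 84 at an unadjusted p under 0.05. Of all genes, 11.7%, 24%, 25% and 14.6% had such a p in these comparisons. An alternative without WT replicate A was added after the data were seen. There WT against VEC called 2 of the 84, DQD against WT 9 and F191G against WT 0 by limma (16 at an unadjusted p under 0.05). The share of all genes called without that array is not given here. Among the extracellular antagonists, Chrdl2, the gene of a chordin-like BMP binder, averaged 6.17 ± 0.134 on the VEC arrays, with 7.002 ± 0.309 for WT and 7.03 ± 0.158 for AQA, against 6.25 ± 0.117 for DQD and 6.26 ± 0.338 for F191G (SD, n = 3). It was higher in WT by 0.83 (SE 0.172, adjusted p = 0.0126) and in AQA by 0.85 (SE 0.172, adjusted p = 0.0406), and fell in F191G and DQD against WT by 0.75 (SE 0.176, adjusted p = 0.0356) and 0.75 (SE 0.176, adjusted p = 0.0159). The WT and DQD differences were still called without WT replicate A (0.64 and -0.58).

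Of the 16 further intracellular regulators, 1 rose and 4 fell in WT, where 7.06% of all genes were higher and 5.72% lower. Tob1, an antiproliferative gene whose product binds Smads, rose by 0.69 (SE 0.165, adjusted p = 0.0205). Strap, whose product aids Smad7 at the receptor, fell by 0.36 (SE 0.0729, adjusted p = 0.0116). The deubiquitinase gene Usp15 fell by 0.36 (SE 0.0962, adjusted p = 0.0304), the kinase gene Map3k7 (TAK1) by 0.33 (SE 0.0800, adjusted p = 0.0205) and its partner Tab1 by 0.21 (SE 0.0639, adjusted p = 0.0487), the last named after its values were seen, beyond the limit of 4 names a list. Without WT replicate A, Strap alone of these 5 stayed called (-0.28, adjusted p = 0.0365), and Tob1 and Usp15 read 0.46 and -0.23. In DQD against WT, Usp15, Strap and the phosphatase gene Ppm1a were higher by 0.50 (SE 0.0985, adjusted p = 0.0112), 0.31 (SE 0.0747, adjusted p = 0.0169) and 0.23 (SE 0.0677, adjusted p = 0.0287), and Tob1 was lower by 0.71 (SE 0.169, adjusted p = 0.0164), the Ppm1a call being lost without WT replicate A (adjusted p = 0.0756). In F191G against WT, Usp15 and Ppm1a were higher and Tob1 lower, with differences of 0.40, 0.31 and -0.76 (adjusted p = 0.0376, 0.0313 and 0.0319). None of these 3 calls held without WT replicate A (limma adjusted p = 0.0791, 0.0706 and 0.0564). Of all genes, 11.8% were higher and 12.8% lower in DQD than in WT, and 3.18% higher and 3.95% lower in F191G than in WT.

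Of 21 further genes listed with the ligands, Bmp1 alone was called in WT against VEC, higher by 0.39 (SE 0.110, adjusted p = 0.0383). Despite its name Bmp1 encodes a procollagen protease that also cleaves chordin, and not a ligand. In DQD against WT 4 of that list were lower, Bmp1 by 0.41 (SE 0.112, adjusted p = 0.0237), Gdf10 by 0.39 (SE 0.0746, adjusted p = 0.0105), Gdf7 by 0.33 (SE 0.0841, adjusted p = 0.0192) and Bmp8a by 0.36 (SE 0.106, adjusted p = 0.0300). Of all genes, 7.06% were higher in WT than in VEC and 12.8% lower in DQD than in WT. In F191G against WT the shares were 3.18% higher and 3.95% lower. Whether the lists in this paragraph were called more often than other genes was not tested. Gdf11 was higher in F191G than in WT by 0.40 (SE 0.110, adjusted p = 0.0489). Of 8 further receptors, coreceptors and Smads, the BMP co-receptor gene Rgmb rose in WT by 0.26 (SE 0.0800, adjusted p = 0.0476). Rgma, a related gene, was lower in F191G and DQD than in WT by 0.49 (SE 0.108, adjusted p = 0.0318) and 0.47 (SE 0.108, adjusted p = 0.0153). Smad9, a BMP Smad gene, and Amhr2 were lower in DQD than in WT by 0.78 (SE 0.236, adjusted p = 0.0330) and 0.21 (SE 0.0717, adjusted p = 0.0457). With WT replicate A left out, the WT rises of Bmp1 and Rgmb were 0.31 and 0.17 (adjusted p = 0.148 and 0.209). The DQD differences of Bmp1, Bmp8a, Smad9 and Amhr2 were then -0.35, -0.28, -0.51 and -0.22 (adjusted p = 0.0695, 0.0939, 0.0864 and 0.0919), and those of Gdf10, Gdf7 and Rgma stayed called. The F191G differences of Gdf11 and Rgma from WT were not called in that fit (limma adjusted p = 0.138 and 0.0608).

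Of 21 measured transcripts known to follow TGF-beta or BMP signalling, 3 rose in WT, where 7.06% of all genes were higher. The BMP target Id3 read 7.70, 6.55 and 6.92 in VEC, 8.31, 7.65 and 7.80 in WT, 6.54, 7.15 and 6.73 in AQA, 6.95, 7.50 and 7.33 in DQD and 7.48, 7.55 and 7.50 in F191G. It rose by 0.86 (SE 0.261, adjusted p = 0.0469), although the WT and VEC arrays overlapped, and was not called without WT replicate A (0.66, adjusted p = 0.180). Tsc22d1 and Atoh8 rose by 0.39 (SE 0.0890, adjusted p = 0.0174) and 0.34 (SE 0.101, adjusted p = 0.0458), and neither was called without that array. In DQD against WT Atoh8, Snai1, Cdkn2b, Msx1 and Col1a1 fell, with differences of -0.48, -0.27, -0.25, -0.25 and -0.20 (adjusted p = 0.0129, 0.0184, 0.0445, 0.0457 and 0.0466), 5 of 21 against 12.8% of all genes lower, with Col1a1 again named beyond the limit of 4. Atoh8 stayed called at -0.40 once WT replicate A was left out, and the other 4 did not (Snai1, Cdkn2b, Msx1 and Col1a1 had adjusted p = 0.0513, 0.138, 0.139 and 0.10).

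Markers of other cell types were set beside these results. In WT against VEC the macrophage marker Cd68 alone of 24 markers of fibroblast, endothelial, haematopoietic and neural cells was called, higher by 0.61 (SE 0.159, adjusted p = 0.0269). Of all genes, 12.8% were called in that comparison, 7.06% higher in WT. The log2 of the summed level of the 6 measured haematopoietic markers, Cd68 included, lay between 8.36 and 8.43 in VEC and between 8.36 and 8.63 in WT. In DQD against WT, Cd68, Csf1r and Cd3e of those 6, Kdr of 5 endothelial and Pdgfrb and Col1a1 of 8 fibroblast and muscle markers were lower, as was the luminal marker Cdh1, and 0 of 5 neural markers by limma (0 at an unadjusted p under 0.05), beside 12.8% of all genes lower. The DQD and WT means of Csf1r (4.83 and 5.09), Kdr (4.90 and 5.10), Pdgfrb (5.22 and 5.53), Cd3e (5.70 and 5.96) and Cdh1 (5.45 and 5.72) lay below every array median. Those of Cd68 and Col1a1 lay above. The summed haematopoietic level lay between 8.22 and 8.35 in DQD, the endothelial between 7.20 and 7.29 (7.31 to 7.39 in WT) and the fibroblast and muscle level between 9.04 and 9.24 (9.24 to 9.33 in WT). No detection calls were used, no marker is listed at 0, and the part of these markers in the results was not tested.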

How the data were processed

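The authors deposited log2 values for 23811 probe sets. The submitters' processing notes name RMA and limma, with no versions, and any selection of probe sets is not stated there. A further scaling to Twist1 expression is named in the design text, without its form, so its effect on these values is unknown. Symbols came from the platform annotation, where 20852 probe sets carry 1 symbol, 1440 several and 1519 are not listed. No detection calls were used. Precision is limited by the number of arrays.

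limma 3.58.1 (R 4.3.3) fitted group and batch over 19297 genes, all 15 arrays together, with 9 residual and 3.93 prior degrees of freedom and no filter on dim genes. The fit was tested on simulated data with independent noise and no array standing apart, unlike WT replicate A here. Only 200 of 19297 genes were changed in the simulation, whereas 2466 were called in the real WT against VEC. The rates below need not hold for such a share. For WT against VEC the fit called 98% of simulated log2 changes of 1 and 77% of those of 0.5. It also called 18 unchanged genes. Values on each array are given for members called in any comparison and, where fewer than 4 were called, for those with the smallest p up to 4. Further genes were named where called, up to 4 a list. Members and lists were chosen with earlier results of these data known. Figures were drawn with matplotlib 3.10.9.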

Additional observations from a re-analysis of the deposited data

How the results depend on the processing

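Settings tried were leaving the batch out of the model, a block for the replicate letter, Twist1 itself as covariate, fits to the 6 arrays compared, renewed quantile normalization, median centring, omission of the dimmest 33.3% of genes (42 of 45 members kept), every probe set, a robust fit with a variance trend, single batches, and omission of each array in turn. Of 1168 recomputed differences of named members, 0 changed sign, 932 stayed on their side of the threshold, 200 lost and 36 gained a call. Members were named for a small p in these same data and most settings share arrays, so kept signs are no separate support. Only differences called with all arrays could lose a call: 5 in WT against VEC, 1 in F191G against WT and 16 in DQD against WT. The 932 thus include many differences that were called in neither fit.

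The 5 members called in WT against VEC became 3 with the replicate block and with a variance trend (Tgfb2 and Acvr2a lost in both), 2 in batch B alone, and 0 with the Twist1 covariate (9 at an unadjusted p under 0.05), only the arrays compared or batch A alone. For F191G against WT the count of 1 became 6 without batch, 3 without the dimmest genes, 2 with quantile normalization or a variance trend, and 0 with the replicate block, the Twist1 covariate, only the arrays compared or either batch alone (6 to 11 at an unadjusted p under 0.05). For DQD against WT 16 became 10 with the replicate block, 2 in batch B alone and 0 with only the arrays compared or batch A alone. The 0 for AQA against WT became 6 without batch, 4 once the dimmest genes were omitted and 2 after quantile normalization. The 0 for AQA against VEC became 1 with only the arrays compared, that for DQD against VEC 3 without batch and 2 with median centring, and that for DQD against AQA 1 without batch. The 2 called by the F test became 12 without batch, 5 with median centring, and 0 with the replicate block, the Twist1 covariate or either batch alone (5 to 14 at an unadjusted p under 0.05). Leaving out 1 array gave 0 to 9 for WT against VEC, 0 to 7 for F191G against WT, 0 to 8 for AQA against WT, 0 to 17 for DQD against WT, 0 to 1 for DQD against VEC and DQD against AQA, and 0 to 7 for the F test. The share of all genes called in each setting is not given here. These counts thus do not tell a change in the members from one over all genes. Fewer arrays in a fit leave fewer degrees of freedom, and otherwise the cause was not tested. Twist1 is the introduced gene, so its covariate overlaps with the comparisons themselves. The letters were not taken to pair the arrays: correlations of deviations from group means between same-letter arrays ran from -0.85 to 0.22, 6 of 30 were over 0.1, among them all 3 of DQD with F191G, which are not compared here, and 0 of 15 arrays correlated best with their own letter.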
